A study of Homo sapiens with 6 samples.

Results

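The genes described here encode structural proteins of the extracellular matrix and the enzymes that cross-link them. They were taken by a rule on gene symbols that uses no values, though earlier results of these data were known when they were chosen. They comprise every numbered collagen chain gene, every laminin chain gene, the 5 lysyl oxidase genes, and 10 further matrix genes (FN1, SPARC, NID1, NID2, HSPG2, AGRN, FBN1, FBN2, TNC and THBS1). The rule found 71 of the 61541 genes listed in each library. Of these 71 genes, 47 had at least 1 count in some library and 28 had enough counts to be tested.

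RNA was measured in RCC4, an established human clear cell renal cell carcinoma line that is known to lack functional VHL, a loss that all 6 cultures share. The 3 untreated libraries were compared with 3 libraries of cells exposed for 24 h to interferon gamma at 1000 U/mL plus tumour necrosis factor at 25 ng/mL, referred to below as treated. The labels call the libraries of a group biological replicates, and each replicate drew on 3 flasks of 1 cell line. Native poly(A) RNA was read directly on nanopores, so that a count is 1 RNA molecule entered from its 3′ end, and levels are given as counts per 1000000 counts (CPM). The cytokines were given together, so their separate contributions cannot be told apart.

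Collagens are trimers of chains that wind into a triple helix. Fibrillar collagens form the cable-like fibrils of connective tissue, whereas collagen IV forms the network of the basement membrane, the sheet on which epithelia such as the kidney tubule rest. Laminins are trimers of an alpha, a beta and a gamma chain that form the other network of that sheet, and nidogen and perlecan link the networks to each other. Lysyl oxidases are copper enzymes that oxidise lysine side chains of collagen and elastin, the step that starts covalent cross-linking.

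Both members that passed the test were higher in the treated libraries, and they were LOX and COL15A1. LOX encodes the founding member of the lysyl oxidase family, and COL15A1 encodes collagen XV, a basement membrane zone collagen that carries glycosaminoglycan chains. Their promoter sequences are shown because these are the members that changed, a choice made after the values were seen. The stretch upstream of COL4A1 and COL4A2 is shown because these genes, the collagen genes with the highest CPM and CPM per kb, are transcribed in opposite directions from start sites 127 bases apart. The sequences are from RefSeq on GRCh38.p14, 5′ to 3′ on the strand given.
LOX, chr5:122078414-122078509, minus strand: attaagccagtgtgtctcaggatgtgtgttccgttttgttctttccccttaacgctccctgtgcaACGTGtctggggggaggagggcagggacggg
COL15A1, chr9:98943745-98943773, plus strand: cagaggcgagcgCACGTccgtcgaggggg
COL4A1 and COL4A2, chr13:110307158-110307257, plus strand: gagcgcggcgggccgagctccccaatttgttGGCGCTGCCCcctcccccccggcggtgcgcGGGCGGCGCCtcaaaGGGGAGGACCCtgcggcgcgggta

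In the first 2 sequences the capitals mark ACGTG or its reverse complement CACGT, the core letters of the element bound by hypoxia-inducible factors. In the collagen IV stretch they mark GGG, 5 bases of any kind and CC on either strand, a loose core of the site bound by NF-kappaB. Promoter windows of 300 bases, reaching from 250 before the start site to 50 after it, were searched on both strands. Matches that overlapped, or that read on both strands at 1 place, were each counted, in all windows alike. The last run of capitals in the collagen IV stretch holds such overlapping matches. ACGTG occurred 4 times in the LOX window, and 0.843% of all 35116 windows held at least as many. It occurred 1 time in the COL15A1 window and 0 times in those of COL4A1 and COL4A2, and 21.4% of all windows held at least 1. The loose NF-kappaB core occurred 7 times in the COL4A1 window, 5 times in the overlapping COL4A2 window, 2 times in the COL15A1 window and 0 times in the LOX window. Of all windows 58.7% held at least 1 match, 39.4% at least 2, 10.2% at least 5 and 3.82% at least 7. TTCNNNGAA, the core of the gamma activated site, and GGAA, 2 bases of any kind and GAAA, the core of the interferon stimulated response element, had 0 matches in these 4 windows, and occurred in 7.66% and 2.82% of all windows. These matches describe letters in the windows and no binding was measured.

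Library totals ran from 3626000 to 4406296 counts, so that the limit set by a count of 0 (taken as 3 counts) was 0.674 to 0.863 CPM after normalisation, covering counting error alone. The 4 genes used to check cytokine exposure (GBP1, IRF1, ICAM1 and TAP1) were all higher in the treated libraries. Of 14 renal epithelial and clear cell carcinoma markers 13 were tested, among them PAX8, and CDH1 was at 0 counts. All 6 endothelial markers had 0 counts in every library, and the leukocyte markers reached at most 1 count. Of 8 fibroblast and pericyte markers 4 had 0 counts in every library (PDGFRA, FAP, DCN and LUM), and the summed level of the 8 was 10.9 to 13.8 CPM in untreated and 3.14 to 3.98 CPM in treated libraries. Most of that was PDGFRB, which fell by 1.91 on the log2 scale (adjusted p = 0.0049, edgeR).

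Across the whole table, 819 of 10067 tested genes had a Benjamini-Hochberg adjusted p under 0.05 (edgeR quasi-likelihood), a share of 8.14%, with 5.58% higher and 2.55% lower in the treated libraries. Among the matrix genes 2 of 28 passed, both higher, a share of 7.14%, which is near that of all genes. The other 26 had adjusted p-values from 0.0731 to 0.961, and 8 of the 28 had an unadjusted p under 0.05, against 19.8% of all tested genes. By DESeq2's Wald test 4 members passed, 3 higher and 1 lower, against 9.62% of all 10067 genes, and by limma voom 2 passed, both higher, against 7.90%. The treated and untreated libraries did not overlap for 9 of the 28 (32.1%), 5 of them higher and 4 lower, against 25.9% of all tested genes. The median log2 fold change of the 28 was −0.23, with 10 above and 18 below 0, and that of all tested genes was −0.03. COL15A1, 1 of the 2 that passed, met the count filter through the treated libraries alone. Neither the number of members that met the filter nor the share of them that passed the test is therefore a measure of change. In RNA from a whole culture, fewer cells that make a transcript and less of it per cell cannot be told apart.

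**Figure D1:**
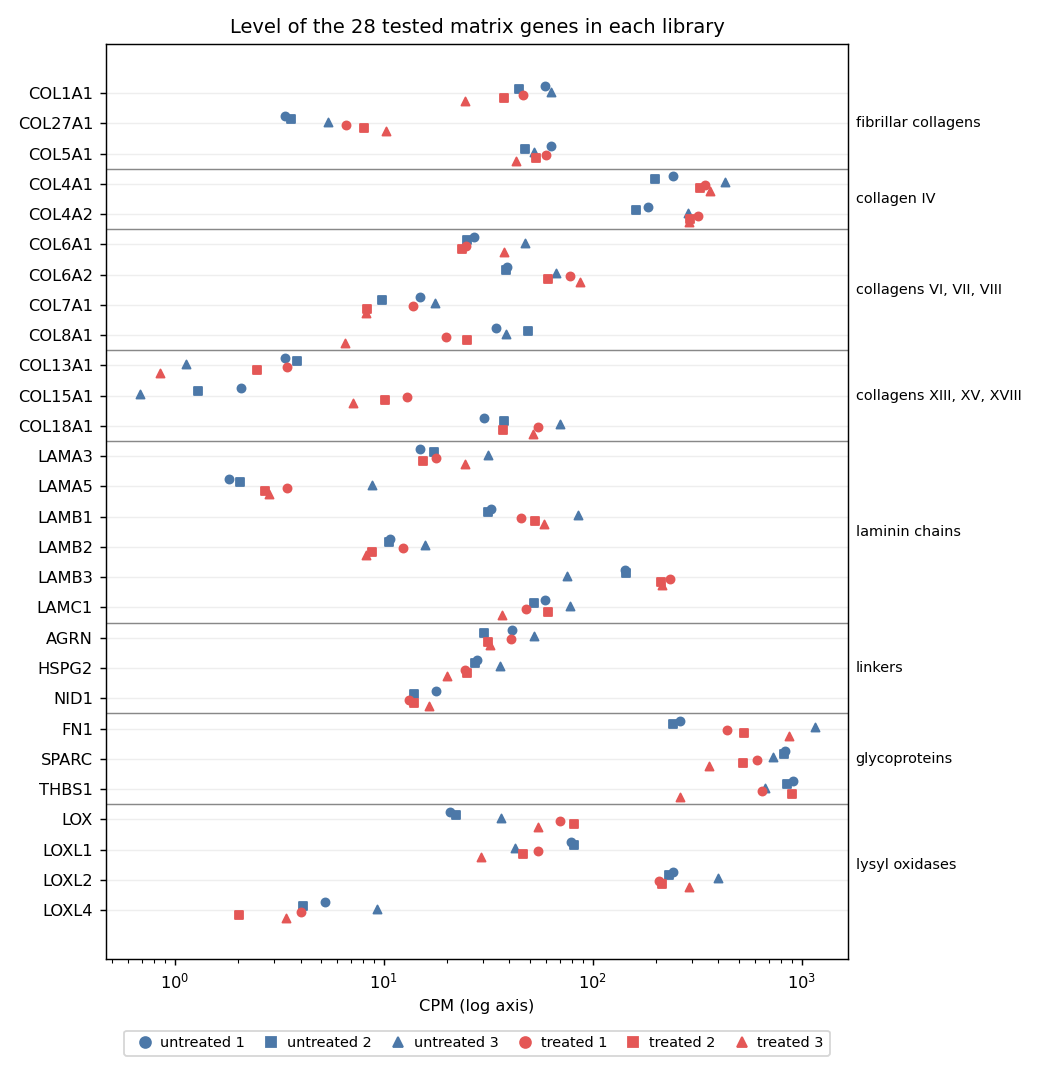
Level of each tested matrix gene in each library, in CPM on a log axis. Blue symbols are untreated and red symbols treated libraries, the shape gives the replicate number, and horizontal lines separate the role classes. COL15A1 and LOX have every red symbol above every blue one, and the blue triangle of untreated replicate 3 lies far from the other blue symbols for FN1 (1154 CPM against 263 and 243 CPM), LAMB1 and LAMA5.

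Untreated replicate 3 stood apart from the other untreated libraries for these genes, and it was often the extreme untreated library over all genes too. It had the highest untreated level in 19 of the 28 tested members (67.9%), against 45.2% of all tested genes. It had the lowest in 7 (25%), against 41.3%. Its level was a median of 1.49 times the mean of untreated replicates 1 and 2, against 1.03 times for all tested genes. Of the 6 libraries it had the most genes detected (15604) and the largest mitochondrial share of counts (6.13%). Summed over the members, it held 4520 CPM, whereas the other untreated libraries held 3411 and 3221 CPM and the treated libraries 3467, 3625 and 3224 CPM. It also had the largest count-weighted exonic length, 4484 bases against 4204 to 4376 in the other 5 libraries, and the tested members are long genes, with a median exonic length of 9083 bases against 5190 for all tested genes. Exonic length here joins all annotated exons of a gene and is not the length of the molecules read. The part of transcript length in these values was not tested.

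Every comparison was therefore also made without that library. Then 9 of the 28 members passed (32.1%), against 11.5% of 10239 genes tested in that fit (7.16% higher, 4.35% lower). That library was singled out by its levels of these same members, so the larger share is no separate measure of their change. Leaving out any other library gave 1 or 2 members past the threshold. The 7 that were higher were LAMB3, FN1, LOX, COL15A1, COL4A2, COL4A1 and COL6A2, and the 2 that were lower were SPARC and LOXL1. The median log2 fold change of the members was −0.02 in that fit and that of all tested genes 0.03. LAMA5, LAMA3 and COL6A1 changed sign.

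**Figure D2:**
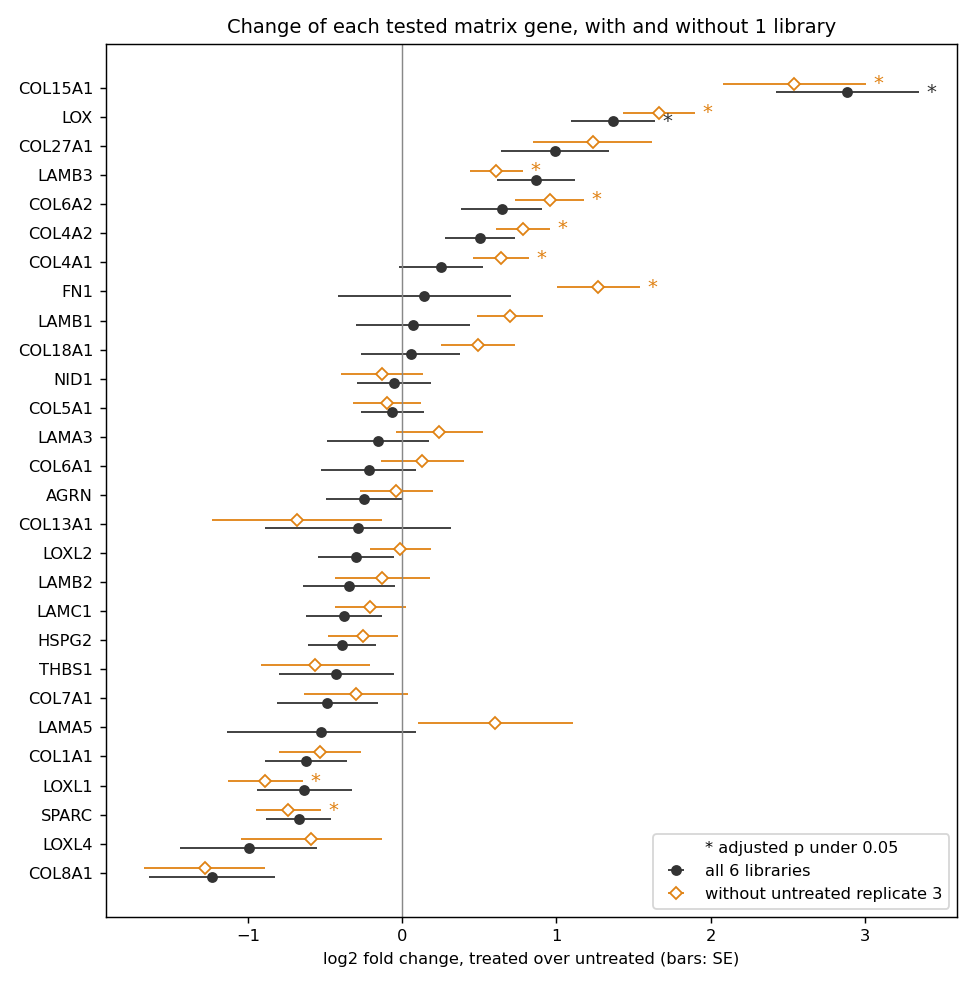
Log2 fold change (treated over untreated) of the 28 tested matrix genes with its standard error, from all 6 libraries (black circles) and without untreated replicate 3 (open orange diamonds). An asterisk marks an adjusted p under 0.05, and 2 circles and 9 diamonds carry one. FN1 and LAMA5 moved furthest between the fits, from 0.14 to 1.27 and from −0.52 to 0.60.

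The highest levels belonged to glycoproteins that bind collagen or cells. By mean CPM over the 6 libraries the order was THBS1 (707 CPM), SPARC (646), FN1 (583), COL4A1 (318), LOXL2 (264), COL4A2 (256) and LAMB3 (171). The order of the group means differed. FN1 (mean 553 CPM) was below THBS1 (811) and SPARC (793) in untreated libraries, and its untreated mean was 253 CPM without replicate 3. In treated libraries the FN1 mean (613 CPM) was above those of THBS1 (603) and SPARC (499). Within libraries this order did not hold throughout. FN1 lay below THBS1 in treated replicates 1 and 2, below SPARC in treated replicate 1, and above both in untreated replicate 3. THBS1, SPARC and FN1 held between 46.2% and 59.6% of all member counts in a library. Divided by exonic length, SPARC led with 139 CPM per kb, followed by THBS1 (77.2), LOXL2 (44.1), LAMB3 (36.8), FN1 (33.9) and COL4A1 (21.7). This scale is no correction, because a count is 1 molecule whatever its length. The length used joins all annotated exons of a gene. Of the 12 highest members, 10 were the same on both scales.

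LOX was the lysyl oxidase that changed. Its level was 20.9, 22.1 and 36.6 CPM in the untreated and 69.9, 81.7 and 54.5 CPM in the treated libraries. The groups did not overlap, and the lowest treated library lay above untreated replicate 3, the highest of its group. The log2 fold change was 1.37 (SE 0.27, adjusted p = 0.0146, edgeR), a 2.58-fold rise, with n = 3 per group. The call was lost without untreated replicate 2 (adjusted p = 0.0777) and without treated replicate 2 (adjusted p = 0.05004), with log2 fold changes that remained between 1.25 and 1.67 over the libraries left out in turn. LOX spans positions 122063195 to 122078413 on the minus strand of chromosome 5 (GRCh38), and the ACGTG shown above lies just upstream of that span.

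The other lysyl oxidase genes did not pass. LOXL2, which is known to act on collagen IV, had 243, 233 and 397 CPM in untreated and 208, 214 and 289 CPM in treated libraries. It was the family member with the highest level, and its groups overlapped (log2 fold change −0.30, SE 0.25, adjusted p = 0.611, edgeR). LOXL1, an enzyme of elastic fibre assembly, had 78.7, 81.6 and 42.7 CPM in untreated and 55.0, 46.5 and 29.2 CPM in treated libraries. Here untreated replicate 3 was the low library of its group and overlapped with the treated ones. The log2 fold change was −0.63 (SE 0.31, adjusted p = 0.307, edgeR), and without that library it was −0.89 (adjusted p = 0.0347). LOXL4 had 5.21, 4.12 and 9.27 CPM in untreated and 4.03, 2.02 and 3.41 CPM in treated libraries. Every treated value was below every untreated one, by a narrow margin between untreated replicate 2 and treated replicate 1 (log2 fold change −0.99, SE 0.44, adjusted p = 0.256, edgeR). LOXL3 had 2 to 8 counts per library and was not tested.

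COL15A1 had the largest log2 fold change of the 28 members. It held 8, 5 and 3 counts in the untreated and 45, 45 and 25 counts in the treated libraries, which is 2.09, 1.29 and 0.678 CPM against 12.9, 10.1 and 7.10 CPM. The groups were far apart, and the untreated levels were close to the counting limit. The log2 fold change was 2.89 (SE 0.46, adjusted p = 0.0049, edgeR, n = 3 per group), a 7.39-fold rise, and it passed under all 13 alternative settings run. In the main fit COL15A1 was among the tested genes through its treated libraries alone. The gene spans positions 98943179 to 99070792 on the plus strand of chromosome 9, and the CACGT shown above lies inside that span. Its relative COL18A1, which encodes collagen XVIII, the source of endostatin, had 30.2, 37.6 and 69.9 CPM in untreated and 55.0, 37.1 and 52.0 CPM in treated libraries. Those groups overlapped (log2 fold change 0.06, SE 0.32, adjusted p = 0.961, edgeR). COL13A1, a transmembrane collagen, was the tested member with the lowest level (mean 2.53 CPM), at a log2 fold change of −0.28 (adjusted p = 0.882, edgeR). The difference between the changes of COL15A1 and COL18A1 was not tested.

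Collagen IV was present as the alpha 1 and alpha 2 chains. COL4A1 had 242, 199 and 429 CPM in untreated and 346, 326 and 365 CPM in treated libraries. COL4A2 had 185, 162 and 287 CPM in untreated and 320, 292 and 288 CPM in treated libraries. For COL4A1 untreated replicate 3 was the highest of all 6 libraries, and for COL4A2 it lay just below the lowest treated one. With all libraries the log2 fold changes were 0.25 (SE 0.27, adjusted p = 0.727) for COL4A1 and 0.50 (SE 0.23, adjusted p = 0.267) for COL4A2 in edgeR. Without untreated replicate 3 they were 0.64 (SE 0.18, adjusted p = 0.0408) and 0.78 (SE 0.18, adjusted p = 0.0132). COL4A3 had 1 count in all, and COL4A4, COL4A5 and COL4A6, whose chains form the other collagen IV trimers, had 0 counts in every library.

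Fibrillar collagen genes were few and did not pass. COL1A1, the alpha 1 chain of collagen I, had 59.4, 44.3 and 62.9 CPM in untreated and 46.3, 37.5 and 24.4 CPM in treated libraries. Treated replicate 1 overlapped with the untreated group (log2 fold change −0.62, SE 0.26, adjusted p = 0.230, edgeR). The fibroblast and pericyte marker PDGFRB moved the same way, and its part in the COL1A1 value was not tested. The partner chain gene COL1A2 had 0 counts in all 6 libraries, as did COL3A1 and COL2A1. COL5A1, a chain of the collagen that nucleates fibrils, had 63.1, 47.6 and 52.5 CPM in untreated and 59.6, 53.7 and 42.9 CPM in treated libraries. Those values were interleaved (log2 fold change −0.06, SE 0.21, adjusted p = 0.925, edgeR). Its partner COL5A2 had 1 to 3 counts per library and COL5A3 had 0 counts.

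COL27A1, a fibrillar collagen best known from cartilage, had 3.39, 3.603 and 5.43 CPM in untreated and 6.62, 8.09 and 10.2 CPM in treated libraries. All treated values lay above all untreated ones, but the difference did not pass (log2 fold change 0.99, SE 0.35, adjusted p = 0.142, edgeR). The 10 fibril-associated collagen genes held no tested member, and 6 of them had 0 counts in every library.

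Collagen VI forms beaded microfilaments, and the genes of its alpha 1 and alpha 2 chains lie near each other on chromosome 21. COL6A2 had 39.1, 38.3 and 66.7 CPM in untreated and 77.97, 61.1 and 87.5 CPM in treated libraries. COL6A1 had 27.1, 25.0 and 47.5 CPM in untreated and 24.7, 23.6 and 37.8 CPM in treated libraries. Untreated replicate 3 lay within the treated range for COL6A2 and above all other libraries for COL6A1. The log2 fold changes were 0.65 (SE 0.26, adjusted p = 0.210) for COL6A2 and −0.22 (SE 0.31, adjusted p = 0.805) for COL6A1 in edgeR. Without untreated replicate 3 they were 0.96 (adjusted p = 0.0155) and 0.13 (adjusted p = 0.805). COL6A3, the third chain of the usual trimer, had at most 3 counts in a library.

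COL8A1, a short-chain collagen of vessel walls and some basement membranes, had the largest negative log2 fold change of the 28. It had 34.4, 49.2 and 38.4 CPM in untreated and 19.9, 25.2 and 6.53 CPM in treated libraries. Every treated value lay below every untreated one, and treated replicate 3 was far below the other treated libraries. The log2 fold change was −1.23 (SE 0.41, adjusted p = 0.119, edgeR), and DESeq2's Wald test gave an adjusted p of 0.0312. In a fit of every gene with at least 1 count the adjusted p was 0.00066 (edgeR), and COL8A1 passed in 3 of 13 alternatives. COL7A1, the anchoring fibril collagen, had a log2 fold change of −0.49 (adjusted p = 0.504, edgeR).

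Among laminin chains the highest level belonged to LAMB3, the beta chain of the laminin that anchors epithelial cells at hemidesmosomes. It had 143, 145 and 75.5 CPM in untreated and 236, 213 and 215 CPM in treated libraries. The groups did not overlap, and untreated replicate 3 was low here, opposite to its place for most members. Its log2 fold change was 0.87 (SE 0.25, adjusted p = 0.0731, edgeR), and without untreated replicate 3 it was 0.61 (SE 0.17, adjusted p = 0.0393). In a fit of every gene with at least 1 count the adjusted p was 0.0033 (edgeR), and LAMB3 passed in 4 of 13 alternatives. The alpha chain of the same trimer, LAMA3, had 14.9, 17.5 and 31.7 CPM in untreated and 17.8, 15.5 and 24.4 CPM in treated libraries, and these groups overlapped (log2 fold change −0.16, SE 0.33, adjusted p = 0.882, edgeR).

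The chains of the widely expressed laminins with gamma 1 did not pass. LAMC1 had 59.4, 52.2 and 78.01 CPM in untreated and 48.0, 61.3 and 36.6 CPM in treated libraries. LAMB1 had 32.6, 31.7 and 84.8 CPM in untreated and 45.2, 53.2 and 58.8 CPM in treated libraries. For LAMB1 the treated libraries lay above untreated replicates 1 and 2 and below untreated replicate 3. The log2 fold changes were −0.38 (SE 0.25, adjusted p = 0.482) for LAMC1 and 0.07 (SE 0.37, adjusted p = 0.956) for LAMB1 in edgeR, and without untreated replicate 3 that of LAMB1 was 0.70 (adjusted p = 0.0560). LAMB2 had a log2 fold change of −0.34 (adjusted p = 0.633, edgeR). LAMA5 had 1.82, 2.06 and 8.82 CPM in untreated and 3.45, 2.70 and 2.84 CPM in treated libraries. A single high untreated library set its sign, since the log2 fold change was −0.52 with it and 0.60 without it (adjusted p = 0.752 and 0.497, edgeR).

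LAMA1 fell short of the filter, with 2, 2 and 3 counts in untreated and 7, 7 and 12 counts in treated libraries. Every treated count was above every untreated one, and in a fit of every gene with at least 1 count its adjusted p was 0.0769 (edgeR), where 6.93% of genes passed. LAMA2 had 2 to 6 counts per library, and LAMA4 and LAMC3 had 0 counts in every library.

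Of the linkers between the basement membrane networks, HSPG2, the gene of perlecan, had 27.9, 27.3 and 36.2 CPM in untreated and 24.5, 25.2 and 20.2 CPM in treated libraries. All treated values were below all untreated ones by a small margin (log2 fold change −0.39, SE 0.22, adjusted p = 0.390, edgeR). NID1, the gene of nidogen 1, had a log2 fold change of −0.05 (adjusted p = 0.951, edgeR), and NID2 had 0 counts in every library. AGRN, which encodes agrin, had a log2 fold change of −0.25 (adjusted p = 0.699, edgeR), and its count is uncertain because 43.8% of its last 500 exonic bases are shared with another gene on its strand.

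FN1 encodes fibronectin, which binds integrins and collagen and forms fibrils at the cell surface. It had 263, 243 and 1154 CPM in untreated and 440, 530 and 869 CPM in treated libraries. Untreated replicate 3 was the highest of all 6 libraries, and the other untreated libraries were below every treated one. Its log2 fold change was 0.14 (SE 0.56, adjusted p = 0.937, edgeR) with that library and 1.27 (SE 0.27, adjusted p = 0.00953) without it. With library totals in place of composition normalisation it was −0.014.

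SPARC, a collagen-binding glycoprotein of basement membranes, had 831, 823 and 726 CPM in untreated and 611, 526 and 359 CPM in treated libraries. The groups did not overlap, and untreated replicate 3 was the lowest of its group. Its log2 fold change was −0.67 (SE 0.21, adjusted p = 0.0982, edgeR), and it was −0.74 (adjusted p = 0.0418) without untreated replicate 3. With library totals it was −0.78 (adjusted p = 0.0416). THBS1, the gene of thrombospondin 1, had 906, 855 and 672 CPM in untreated and 643, 903 and 263 CPM in treated libraries. Treated replicate 3 was far below the others and the groups overlapped (log2 fold change −0.43, SE 0.37, adjusted p = 0.634, edgeR). FBN1 and FBN2, the fibrillin genes, had 0 counts in every library, and TNC, the tenascin C gene, had 1 count in all.

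Chains of a trimer were also compared as a ratio of counts within each library, which removes any factor that scales both chains alike in that library. The 6 ratios were chosen after gene values had been seen. For COL6A2 over COL6A1 the ratio was 1.44, 1.54 and 1.40 in untreated and 3.15, 2.59 and 2.32 in treated libraries. The untreated ratios were close together, untreated replicate 3 included, and every treated ratio lay above them. The treated ratio was 1.82-fold higher (log2 difference 0.87), and a 2-sided exact permutation gave p = 0.1, which is the smallest p that 3 against 3 libraries allow and became 0.4 after adjustment over the 6 ratios. Leaving out each library in turn gave log2 differences from 0.75 to 0.97.

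The other ratios overlapped between the groups. COL4A2 over COL4A1 was 0.763, 0.815 and 0.669 in untreated and 0.926, 0.895 and 0.788 in treated ones, with a log2 difference of 0.22 (exact permutation p = 0.2). LAMB3 over LAMA3 was 9.65, 8.26 and 2.39 in untreated and 13.2, 13.8 and 8.79 in treated ones, with a log2 difference of 1.02 (exact permutation p = 0.2), and the log2 difference was between 0.39 and 1.40 with libraries left out. For LAMB3 over LAMA3 the low ratio of untreated replicate 3 set much of the spread. The log2 differences of LAMB1, LAMB2 and LAMA5 over LAMC1 were 0.62, 0.06 and 0.28 (exact permutation p = 0.3, 0.8 and 0.8). With libraries left out, they ranged from 0.34 to 0.92, from −0.12 to 0.31 and from −0.093 to 0.85, so that the sign of the last 2 turned.

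**Figure D3:**
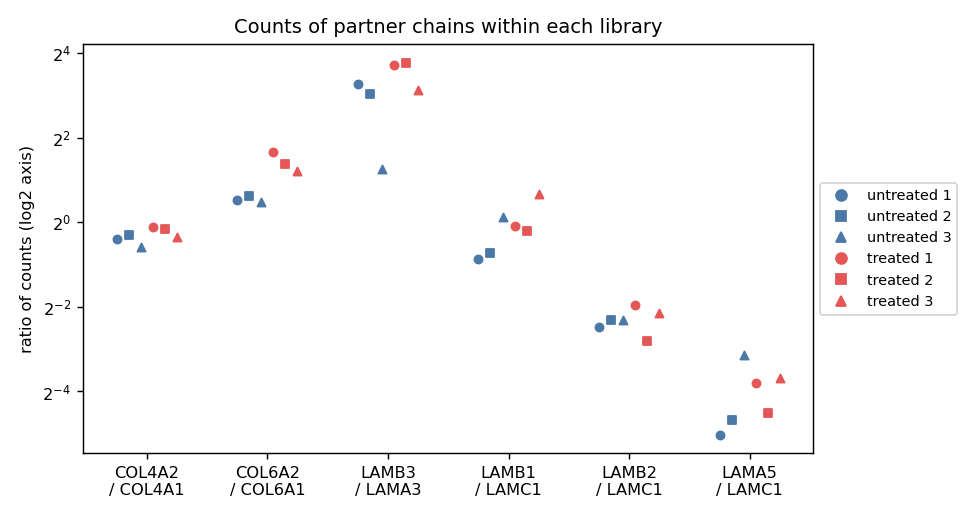
Ratio of the counts of partner chains in each library, on a log2 axis, for 6 pairs. Blue symbols are untreated and red symbols treated libraries, and the shape gives the replicate number. COL6A2 over COL6A1 is the pair whose groups do not overlap, at 1.40 to 1.54 in untreated and 2.32 to 3.15 in treated ones.

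Genes that make, sense or regulate the matrix were read from 4 lists beside the members, and their counts stand against 5.58% of all tested genes higher and 2.55% lower. Of 27 collagen biosynthesis and processing genes 20 were tested, 1 was higher and 0 were lower (median log2 fold change 0.15). Of 29 matrix receptor genes 17 were tested, 3 were higher and 2 lower (median −0.10). Among the ligands, receptors and targets of TGF-beta 14 of 19 genes were tested and 0 passed (median 0.03), and of 35 other structural matrix genes 8 were tested and 0 passed (median 0.07). The median of all tested genes was −0.03. Among the genes with the highest levels in these last lists were CCN1 (log2 fold change −0.40, adjusted p = 0.521), TGFBI (0.08, adjusted p = 0.889) and SPP1 (0.84, adjusted p = 0.623), all in edgeR. At an unadjusted p under 0.05 these lists held 5 and 1 genes, DESeq2 called 2 and 0 of them, and limma voom called 0 and 0. Without untreated replicate 3 SPP1 was at 2.13 (adjusted p = 0.0123) and passed, while CCN1 and TGFBI did not. Over the 4 lists 6 of 59 tested genes passed (10.2%, against 8.14% of all tested genes), and 11 did so without untreated replicate 3 (18.6%, against 11.5%).

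P3H2 encodes a prolyl 3-hydroxylase that modifies collagen chains, collagen IV among them. It had 70.4, 74.1 and 82.1 CPM in untreated and 132, 152 and 145 CPM in treated libraries, with a wide gap between the groups. It rose by 0.92 on the log2 scale (SE 0.17, adjusted p = 0.00903, edgeR), a call lost without untreated replicate 2 (adjusted p = 0.0664).

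ITGA6 encodes the alpha chain of laminin-binding integrins. It had 3.91, 6.95 and 11.5 CPM in untreated and 26.2, 42.0 and 56.5 CPM in treated libraries. The groups were well apart, with a log2 fold change of 2.46 (SE 0.42, adjusted p = 0.00623, edgeR). ITGB4, which pairs with it in hemidesmosomes, had 0 counts in every library. CD47, a receptor of thrombospondin 1 and the ligand of SIRPA, had 39.1, 28.3 and 54.7 CPM in untreated and 196, 325 and 322 CPM in treated libraries. Every treated library was far above every untreated one (log2 fold change 2.78, SE 0.30, adjusted p = 0.000508, edgeR). DDR1, a receptor tyrosine kinase that binds collagen, had 31.3, 31.1 and 38.0 CPM in untreated and 58.1, 49.9 and 70.4 CPM in treated libraries. Its groups did not overlap (log2 fold change 0.82, SE 0.21, adjusted p = 0.0420, edgeR), and it passed in 8 of 13 alternatives. The calls lost were those with library totals (adjusted p = 0.0831) and without untreated replicates 1 or 2 (0.129 and 0.182) or treated replicates 1 or 3 (0.101 and 0.174).

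Receptors that fell were SDC2 and ITGB8. SDC2, a cell surface heparan sulfate proteoglycan, had 118, 123 and 171 CPM in untreated and 49.8, 60.9 and 36.1 CPM in treated libraries. The groups did not overlap, and SDC2 fell by 1.49 on the log2 scale (SE 0.25, adjusted p = 0.00552, edgeR). ITGB8, the beta chain of an integrin that activates latent TGF-beta, had 6.26, 3.603 and 8.37 CPM in untreated and 1.44, 0.898 and 1.42 CPM in treated libraries. All treated values were below all untreated ones and near the counting limit. ITGB8 fell by 2.28 on the log2 scale (SE 0.47, adjusted p = 0.0175, edgeR), a call lost without treated replicate 1, 2 or 3 (adjusted p = 0.0567, 0.0905 and 0.0726).

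**Figure D4:**
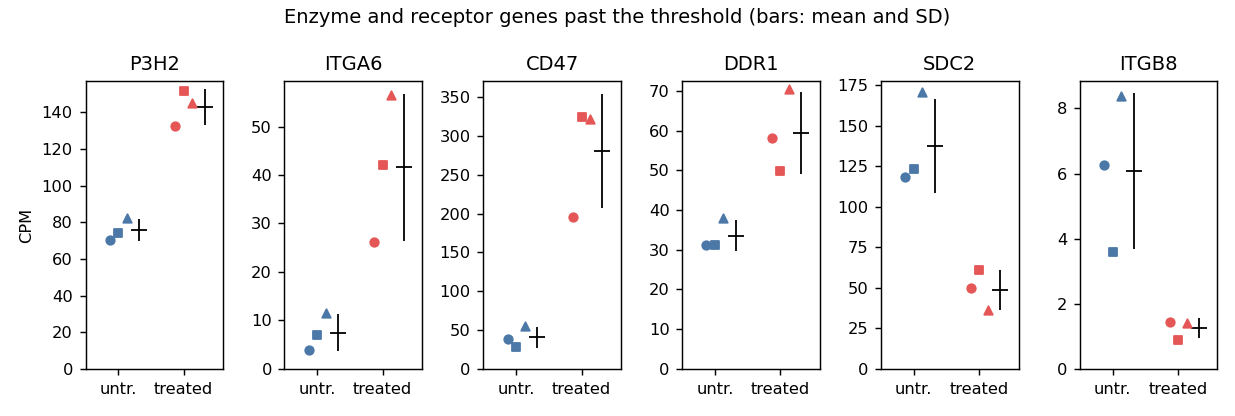
Level in CPM of the 6 matrix enzyme and receptor genes that passed the test, in untreated (blue) and treated (red) libraries, each panel on its own axis from 0. Shapes give the replicate number and black bars the mean and SD of 3 libraries. P3H2, ITGA6, CD47 and DDR1 have every treated library above every untreated one, and SDC2 and ITGB8 every treated library below.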

How the data were processed

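The values used are raw read counts per gene, deposited by the authors. They were made with featureCounts 2.0.1 in long-read, strand-specific mode over exons of Ensembl release 105 (GRCh38), per the file headers. The submitters' processing notes name minimap2 2.24, SAMtools 1.16 and featureCounts 2.0.0. Reads above quality 7 were used, per the series design text. Alignment names in the file headers carry the word dmso, while the labels mention no vehicle, and groups were taken from the sample titles. Symbols came from a gene name table for 61369 of 61541 identifiers and from GENCODE 29 for 159.

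Counts were tested with edgeR 4.0.16 in R 4.3.3 (quasi-likelihood F test, TMM, filterByExpr with a minimum count of 10, Benjamini-Hochberg adjustment over all 10067 genes tested, threshold 0.05, group as the sole term), and the procedure was tested on simulated data. There edgeR recovered 91 of 100 simulated 4-fold changes and 38 of 100 simulated 2-fold changes, with 8 false calls. A gene that did not pass may therefore still have changed. CPM is the count per 1000000 of the library total times its TMM factor. Standard errors were taken from the fold change and its F statistic (size of the log2 value over the root of F). The p-values measure the spread between cultures of 1 cell line.

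Named are members past the threshold, the 12 highest by mean CPM, the 5 largest rises and falls, partner chains, and list genes past the threshold or, where there were none, the 2 highest. Members named outside this rule were chosen after their values were seen. A few genes that the rule takes are not reported here. The members, lists and tests were chosen with earlier results of these data known. Alternatives were DESeq2 size factors, library totals, 2 other filters, DESeq2 1.42.0, limma voom (limma 3.58.1), the replicate number as a block, and each library left out in turn. Promoter windows were matched by symbol for 54 of the 71 members.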

Additional observations from a re-analysis of the deposited data

How the results depend on the processing

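The number of genes passing in the whole table, 819, became 1328 without a filter on low counts (genes with at least 1 count) and ranged from 455 to 1178 with 1 library left out (455 without treated replicate 3, 465 without untreated replicate 2, 1178 without untreated replicate 3). With library totals the split was 485 higher and 364 lower, in place of 562 and 257, and the median of all genes shifted by −0.11 on the log2 scale. The 2 members that passed became 4 of 47 without that filter, 4 with DESeq2 and 1 to 9 with 1 library left out (1 without untreated replicate 2 or treated replicate 2, 9 without untreated replicate 3). The 6 genes of the pathway lists became 11 without it and 4 to 11 with 1 library left out (11 without untreated replicate 3). With the replicate number as a block, 1513 genes (15.03% of those tested), 8 members (4 higher, 4 lower) and 15 list genes passed. The titles do not state that a replicate number marks a shared batch, so the number was left out of the main fit. Deviations of same-numbered libraries correlated at 0.651, −0.0037 and 0.374, and those of different numbers from −0.674 to 0.413. Not every library correlated best with its own number. Whether same-numbered libraries shared a batch was not tested. With library totals FN1 was at −0.014 and LAMB1 at −0.066, each opposite in sign to its main value. With 1 library left out, FN1 ranged from −0.21 to 1.27, LAMB1 from −0.17 to 0.70, COL5A1 from −0.17 to 0.078, COL6A1 from −0.45 to 0.13, LAMA3 from −0.36 to 0.24 and LAMA5 from −0.85 to 0.60. Among named members not called in the main fit, LAMB3 passed in 4 of 13 alternatives, and COL8A1 and SPARC in 3. COL6A2 and LOXL1 passed in 2, and THBS1, FN1, COL4A1 and COL4A2 in 1. Of 364 log2 fold changes of 28 named genes under 13 alternatives, 321 kept their sign and side of the threshold, 18 came to pass, 11 no longer passed and 14 changed sign. The cause was not tested. Of the 43 members outside the filter, 24 had 0 counts in every library, and 19 had at most 12 counts in a library.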
